A study of Mus musculus with 2 samples.

Results

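The ubiquitin-conjugating (E2) enzymes described here were all genes whose name on the array starts with Ube2, apart from Ube2c, which was left out. They numbered 30 genes with 80 probes, of 41174 gene probes on the array, and 29 of the genes had a probe that could be tested. Members were selected on gene name, but with the ratios of these same arrays already known, so the ratios of members are given as a description. Where members are counted past a threshold, the share of all genes or probes past it stands beside the count, or its absence is stated. No conclusion is drawn from such counts. The study set mouse keratinocytes, the main cells of the epidermis, labelled as CHUK-LoxP mutant against wild-type keratinocytes. Chuk encodes IKKα, a kinase subunit of the NF-kB pathway. Total RNA was hybridised to 2 dual-colour Agilent arrays, both on 1 slide and read in 1 scan. On each array the wild-type RNA carried Cy3 and the RNA labelled as CHUK-LoxP mutant carried Cy5, with no dye swap. Strain, age, the Cre driver and whether the arrays hold separate cultures or animals are not given in the sources used here. P-values below thus rest on how far the 2 arrays lie apart, a spread that could be purely technical. An effect of dye and an effect of the mutation cannot be told apart, for a single probe or for the family as a set.

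Ubiquitin is activated by an E1 enzyme, passed to a cysteine of an E2 enzyme, and transferred to a target protein with the help of an E3 ligase. The E2 often decides which kind of ubiquitin chain is built, and so whether the target is sent to the proteasome or used as a signalling platform. Some members of the family carry a ubiquitin-like protein instead, such as SUMO, NEDD8 or ISG15. In keratinocytes, as in other cells, the inhibitors of NF-kB are destroyed through ubiquitin chains after they are phosphorylated by the IKK complex.

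Promoters are shown as a description only, for 2 genes from the low end of the family and 2 from the other end. RefSeq promoter windows (GRCm38.p6, 250 bases before each start) matched 23 of the 30 genes, with 34 windows. The 4 genes printed are those with the lowest and the highest ratios among genes with 1 listed start. The upper 2, Ube2q1 and Ube2l6, lay near 0, both at 0.05, and Ube2l6 was dim. Ube2o, the only gene past the threshold as higher, had no window, and Ube2h, the lowest, had 2 listed starts. The 4 windows are thus no contrast of low with high genes. The windows lie on the plus strand at chr11:72607011-72607260 for Ube2g1, chr10:95514912-95515161 for Ube2n, chr3:89773359-89773608 for Ube2q1 and chr2:84798578-84798827 for Ube2l6. Capitals mark the SP1 GC box GGGCGG, the ETS motif CCGGAAG and the E-box CACGTG, each searched on both strands.
Ube2g1: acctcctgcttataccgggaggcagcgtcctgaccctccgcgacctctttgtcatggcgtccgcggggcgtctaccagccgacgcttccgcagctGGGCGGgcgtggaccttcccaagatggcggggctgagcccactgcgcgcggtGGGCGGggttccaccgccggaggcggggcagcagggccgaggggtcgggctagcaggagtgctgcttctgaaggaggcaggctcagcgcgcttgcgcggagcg
Ube2n: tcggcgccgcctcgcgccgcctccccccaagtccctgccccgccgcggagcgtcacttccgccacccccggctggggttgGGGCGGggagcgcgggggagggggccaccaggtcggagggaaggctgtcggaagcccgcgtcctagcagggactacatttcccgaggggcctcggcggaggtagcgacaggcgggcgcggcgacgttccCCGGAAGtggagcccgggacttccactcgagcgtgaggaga
Ube2q1: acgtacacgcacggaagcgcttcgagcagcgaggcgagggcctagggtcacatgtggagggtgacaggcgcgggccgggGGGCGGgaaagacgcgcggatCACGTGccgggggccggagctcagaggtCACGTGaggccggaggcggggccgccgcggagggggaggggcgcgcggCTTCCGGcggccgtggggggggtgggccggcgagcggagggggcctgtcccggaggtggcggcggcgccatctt
Ube2l6: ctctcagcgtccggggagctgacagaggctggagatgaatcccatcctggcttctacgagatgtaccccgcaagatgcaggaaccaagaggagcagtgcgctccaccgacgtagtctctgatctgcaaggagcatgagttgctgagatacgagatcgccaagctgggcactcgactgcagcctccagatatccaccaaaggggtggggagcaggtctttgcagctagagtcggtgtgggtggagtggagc

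Ube2g1, at the low end, held 2 GC boxes, and Ube2n held 1 GC box and 1 ETS motif. Ube2q1, whose ratio was near 0, also held 1 GC box and 1 ETS motif, with 2 E-boxes, and Ube2l6 held none of the motifs searched. Across the family, 70.6% of the 34 windows held a GC box, against 32.7% of all 32841 windows. The ETS motif stood in 23.5% of family windows and in 6.91% of all. The CCAAT box of NF-Y stood in 17.6% and 33.9%, and the TATA box TATAAA in 8.82% and 12.4%. The E-box was found in 5.88% and 6.02%, and the CREB motif TGACGTCA in 2.94% and 1.55%. The NF-kB motif was found in 8.82% of family windows and 3.9% of all. The NRF1 motif GCATGCGC and the interferon-stimulated response element were in 0 of the 34 family windows, and in 2.26% and 2.98% of all windows. Family windows had a median GC content of 69.4% and 25 CpG sites, against 52.4% and 6 over all windows, and several windows can belong to 1 gene. These matches describe letters in a window and are neither binding sites nor causes.

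Log2 ratios of Cy5 over Cy3 were taken after background correction and loess, which centres each array on the bulk of its probes at each intensity. A gene was represented by its brightest tested probe, and a probe was tested if, on both arrays, either channel was clearly above background. These filters left 23519 probes and 13739 genes, of which 12681 were well measured, with both channels well above background on each array. The median processed signal over all gene probes was 109.9 and 95.2 in Cy3 and 218 and 171.5 in Cy5 on arrays 1 and 2. The number of arrays, 2, limits the precision of every value. Chuk itself was higher in the channel labelled CHUK-LoxP mutant, with log2 ratios of 0.73 and 0.75 for 1 probe and 0.93 and 0.78 for the other (limma, adjusted p = 0.000101 and 0.000103). Once lowered by the spike-in mean, the Chuk probes lay at -0.03 and 0.09. Where the probes lie relative to any deleted part is not known here. All directions below refer to the channel labelled CHUK-LoxP mutant. If that label stands for a deletion of Chuk, the Chuk probes go against it.

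Set against well-measured genes of like intensity, 25 of the 28 well-measured family genes lay below the median of their intensity class. There were 10 classes of equal size, and the family's median difference from its classes was -0.25 on the log2 scale (-0.22 on array 1 and -0.27 on array 2). In their class, 16 of the 28 lay in the lowest 25%, 5 in the lowest 10% and 1 in the highest 25%, and the median percentile was 21.8. The 1 gene in the highest 25% was Ube2o, at the 85.9th percentile. The lowest was Ube2h, at the 4.93rd, followed by Ube2g2 at 6.98, Ube2g1 at 8.79, Ube2m at 9.58 and Ube2n at 9.98. The position of the family among its like-intensity classes was much the same with each array centred on the median of all gene probes without loess (25 of 28 below, median difference -0.24) and with the software's own log ratio (25 of 28 below, -0.27). Lowering all ratios by the spike-in mean, or changing the value an array is centred on, shifts every gene equally and cannot move this difference. Leaving out loess could move it only a little, since loess changes genes of like intensity by nearly the same amount.

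**Figure D1:**
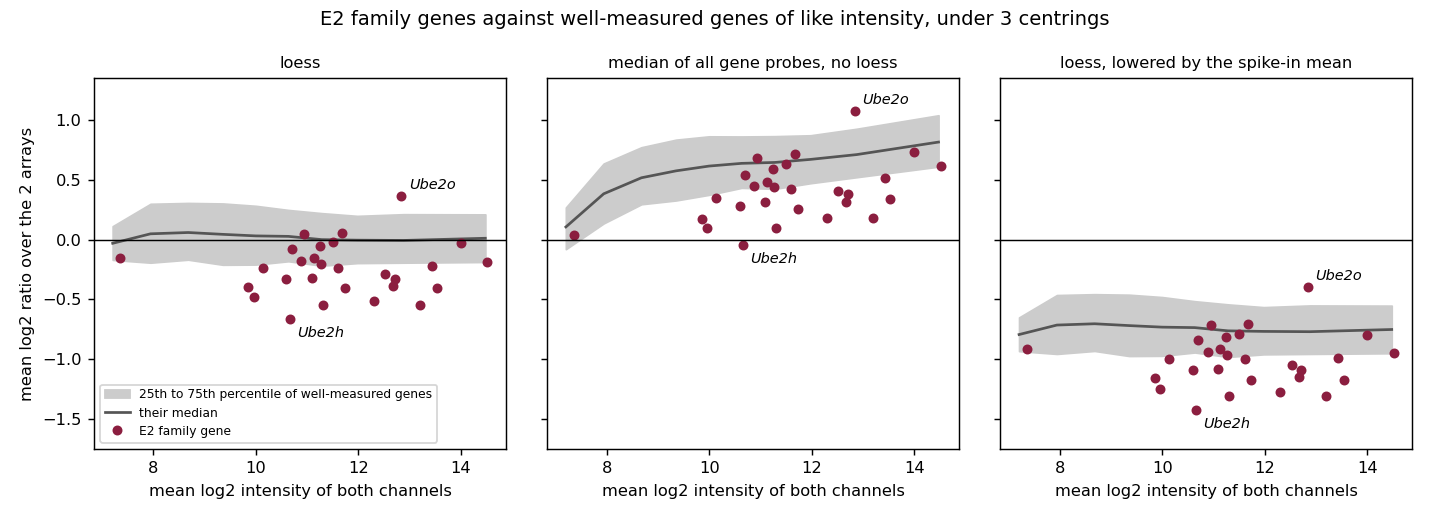
Mean log2 ratio (vertical axis) against the mean log2 intensity of both channels (horizontal axis) for the 28 well-measured E2 family genes (points), with the 25th to 75th percentile (band) and median (line) of all well-measured genes in 10 intensity classes, under 3 centrings. Most family genes lie below the line in each panel, while their sign against 0 flips, from a median of -0.24 after loess to 0.39 with the median of all gene probes and -1.0 after the spike-in mean. The spike-in panel is the loess panel with every gene shifted equally.

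The sign of the family's ratios, in contrast, depended on the centring. After loess the family median was -0.24 (-0.21 on array 1, -0.24 on array 2), against 0.02 for all genes tested (0.01 and 0.03). Centring on the median of all gene probes, an alternative chosen after seeing the data, raised the median of all genes by 0.53 and put the family median at 0.38, still below the 0.55 of all genes. Lowering by the spike-in mean, which was 0.68 and 0.84 on the arrays, changed the median of all genes by -0.76 and put the family median at -1.0, against -0.74 for all genes. Statements of lower or higher below are after loess, and the centring on all gene probes reverses 23 of the 28 genes whose values are given.

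After loess, 23 of the 29 genes lay below 0 on both arrays and 3 above 0 on both, while 41.9% of all genes tested lay below 0 on both. The limma threshold (adjusted p under 0.05 over all probes tested) was passed by 20 of the 29 in the lower direction, against 28.3% of all genes, and by 1 in the higher direction, against 33% of all genes. With the median of all gene probes as centre, 0 passed as lower, against 7.14% of all genes, and 21 as higher, against 75.1%. With the spike-in mean, 29 passed as lower, against 91%, and 0 as higher, against 1.98%. At an unadjusted p under 0.05 in limma, these counts of 0 remained 0. The differences were small, and 0 family genes reached 1.5-fold on both arrays in either direction after loess, against 6.81% of all genes for lower and 5.74% for higher. The means ran from -0.66 to 0.37, and 15 of the 29 lay within 0.25 of 0. The arrays differed by a median of 0.05 for a family gene and of 0.08 for any gene tested. Total RNA came from whole preparations, so fewer cells of a type and less RNA per cell cannot be told apart.

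**Figure D2:**
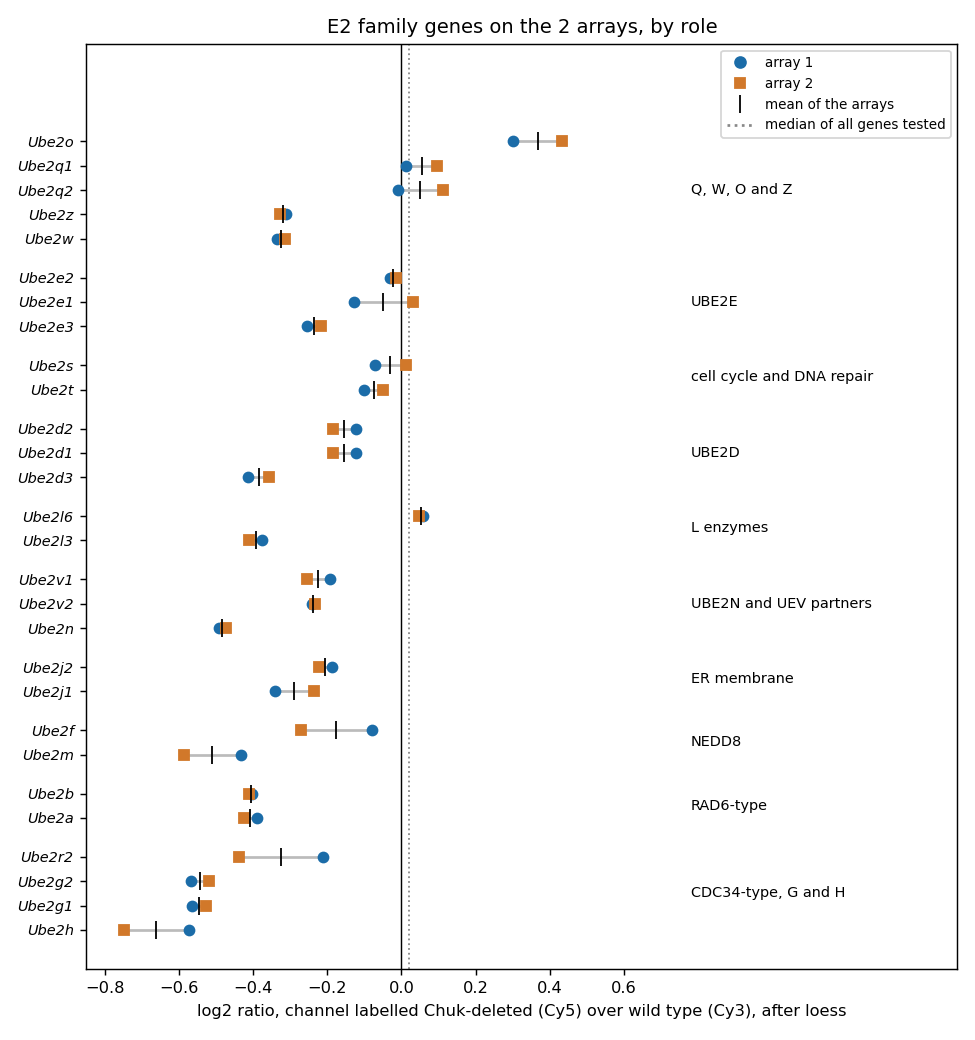
Log2 ratio (horizontal axis) of the 28 E2 family genes reported by name on array 1 (circle) and array 2 (square) with the mean (bar), after loess, grouped by role; the dotted line is the median of all genes tested, 0.02. Of these genes 22 lie below 0 on both arrays and 3 above it on both, and centring on all gene probes turns 23 of the 28 to the other side of 0. On the axis, Chuk-deleted stands for the label CHUK-LoxP mutant.

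The genes of the CDC34-type and G and H enzymes lay lowest, with a median of -0.55 over 4 genes. Ube2h, a partner of the CTLH ligase complex known from red cell maturation, gave processed signals of 2369 and 1458 in Cy3 and of 1583 and 836 in Cy5 on arrays 1 and 2. Its log2 ratios were -0.57 and -0.75 (-0.66 ± 0.12, SD, n = 2), a 1.58-fold lower mean. Cy5 was below Cy3 on both arrays, but 1 of its 3 probes lay near 0, at -0.07 and -0.10, and the remaining probe differed between the arrays, at -0.42 and -0.96. Ube2g1, which extends chains that lead to the proteasome together with cullin ligases, lay at -0.57 and -0.53 (-0.55 ± 0.03, SD, n = 2), and its second probe at -0.46 and -0.70. Ube2g2, which works in the destruction of misfolded proteins of the endoplasmic reticulum (ER), had signals of 9506 and 13318 in Cy3 and 6470 and 9313 in Cy5. The ratios of Ube2g2 were -0.57 and -0.52 (-0.54 ± 0.03, SD, n = 2), and all 3 of its probes lay between -0.62 and -0.38. Ube2r2, a close relative of Cdc34 that serves SCF ligases, lay at -0.21 and -0.44, wider apart than its neighbours, and its 4 probes ranged from -0.70 to -0.16.

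Both RAD6-type enzymes, which mark histone H2B and the replication clamp PCNA, lay below 0. Ube2a gave -0.39 and -0.43 (-0.41 ± 0.03, SD, n = 2) by its brightest probe, and its second probe lay nearer to 0, at -0.18 and -0.11. Ube2b gave -0.40 and -0.41 (-0.41 ± 0.01, SD, n = 2), with signals of 16568 and 16716 in Cy3 against 12420 and 12395 in Cy5. By their brightest probes, Ube2a and Ube2b differed by 0.01 on array 1 and by -0.02 on array 2. The 4 Ube2b probes with a RefSeq mRNA accession lay between -0.49 and -0.24, and the probe for a cDNA clone lay at 0.17 and 0.08.

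Ube2n, the enzyme that builds the signalling chains used by the NF-kB and DNA damage pathways, lay at -0.49 and -0.47 (-0.48 ± 0.01, SD, n = 2). A brighter Ube2n probe was marked as an outlier on array 2 and was not tested; on array 1 it lay at -0.43. Its catalytically inactive partners lay closer to 0. Ube2v1, the partner in NF-kB signalling, gave -0.19 and -0.25, and Ube2v2, the partner in DNA damage tolerance, gave -0.24 and -0.23. All 3 probes of each partner gene lay below 0 on both arrays.

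The UBE2D enzymes, general partners of RING-type ligases, were all below 0 with a median of -0.15. Ube2d3, the brightest of them, lay at -0.41 and -0.36 (-0.39 ± 0.04, SD, n = 2), and 3 of its 4 probes lay between -0.42 and -0.33. Ube2d2 lay at -0.12 and -0.18, and its 3 probes ran from -0.31 to 0.09. Ube2d1 also lay at -0.12 and -0.19, but its signals were dim, at 115.3 and 77.1 in Cy3. These enzymes are close in sequence, and whether their probes tell them apart was not tested. The related UBE2E enzymes lay nearer to 0. Ube2e1 was on either side of 0, at -0.13 and 0.03, and Ube2e2 lay at -0.03 and -0.01. Ube2e3 lay lowest of the 3 UBE2E genes, at -0.26 and -0.22 (-0.24 ± 0.03, SD, n = 2).

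Both enzymes anchored in the ER membrane, which handle misfolded proteins, lay below 0. Ube2j1 gave -0.34 and -0.24, and Ube2j2 gave -0.19 and -0.22. The 2 tested probes of Ube2j1 lay at -0.29 and -0.21, while those of Ube2j2 ran from -0.21 to 0.06.

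Ube2m, the main NEDD8 enzyme, which activates cullin ligases, lay low. Its signals were 6409 and 5318 in Cy3 and 4792 and 3563 in Cy5, its ratios -0.43 and -0.59 (-0.51 ± 0.11, SD, n = 2). Ube2f, the other NEDD8 enzyme, gave -0.08 and -0.27. The difference of Ube2m minus Ube2f was -0.35 on array 1 and -0.31 on array 2, but a dimmer Ube2f probe lay at -0.54 and -0.58.

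Of the L enzymes, Ube2l3, which serves HECT and RBR ligases such as parkin and the linear-chain ligase, lay at -0.38 and -0.41 (-0.39 ± 0.02, SD, n = 2), and its second probe at -0.35 and -0.40. Ube2l6, the interferon-induced enzyme that carries ISG15, was dim and lay at 0.06 and 0.05. Its Cy3 signals were 76.8 and 47.6, and only 1 of the arrays had Cy3 well above background, so the genes are not set against each other. Without loess, with the median of all gene probes as centre, Ube2l3 lay at 0.18 and Ube2l6 at 0.12.

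The cell cycle and DNA repair members were near 0. Ube2s, which lengthens chains built by the anaphase-promoting complex, lay at -0.07 and 0.01. Ube2t, which marks FANCD2 in the Fanconi anaemia pathway, lay at -0.10 and -0.05. Ube2u was not well above background in either channel and had no tested probe.

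The remaining enzymes spread widest. Ube2o, a large enzyme that acts as E2 and E3 in 1 protein, had signals of 5803 and 6449 in Cy3 and 7298 and 8826 in Cy5. The ratios of Ube2o were 0.30 and 0.43 (0.37 ± 0.09, SD, n = 2), a 1.29-fold higher mean, and its dimmer probe lay at 0.63 and 0.51. Both Ube2o probes lay above 0 on both arrays, which no other family gene with several tested probes showed. Ube2z, which receives ubiquitin from the E1 enzyme Uba6, lay at -0.31 and -0.33. Ube2w, which modifies the amino terminus of proteins, lay at -0.34 and -0.32 by its brightest probe. Ube2q1 gave 0.01 and 0.10, and Ube2q2 gave -0.01 and 0.11, so neither was clear of 0.

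Paralog pairs were picked out after their values were seen. After loess the mean ratios of Ube2a and Ube2b, of Ube2g1 and Ube2g2 and of Ube2q1 and Ube2q2 each lay less than 0.01 apart, and those of Ube2v1 and Ube2v2 0.01 apart. Without loess, with the median of all gene probes as centre, they lay 0.082, 0.082, 0.036 and 0.16 apart in the same order. These values are of the brightest probe of each gene. Probes of a single gene lay further apart after loess, from -0.49 to 0.13 for Ube2b and from -0.26 to 0.24 for Ube2q2. Ube2d2 lay above Ube2d3 by 0.23 after loess, with 0.29 on array 1 and 0.17 on array 2, and by 0.17 without it. Whether the probes of a pair also bind the other gene's RNA was not tested, since no probe sequences were used here.

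Of the 73 tested probes, 56 lay below 0 on both arrays and 13 above 0 on both. By the limma threshold 43 were lower, against 27.9% of all probes tested, and 6 higher, against 33.5%. Most genes with several tested probes, 12 of 23, had every probe below 0 on both arrays. In 8 genes, among them Ube2b, Ube2d2, Ube2e2, Ube2j2, Ube2q1, Ube2q2 and Ube2w, at least 1 probe lay below 0 on both arrays and at least 1 above 0 on both. In 3 genes, Ube2q2 and Ube2w among them, probes passed the threshold in opposite directions. The share of all genes with several probes that did so is not given here. The 3 tested Ube2w probes lay at -0.33, 0.19 and 0.33, and the 4 of Ube2q2 ran from -0.26 to 0.24. In Ube2q1 the second probe gave -0.13 and -0.30 where the brightest gave 0.01 and 0.10. Probes with a RefSeq mRNA accession made 41 of the 43 lower calls and 4 of the 6 higher calls, among 65 tested. The 8 tested probes with another accession made 2 of each. Shares of all probes tested by kind of accession are not given either, so nothing is read from this split.

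**Figure D3:**
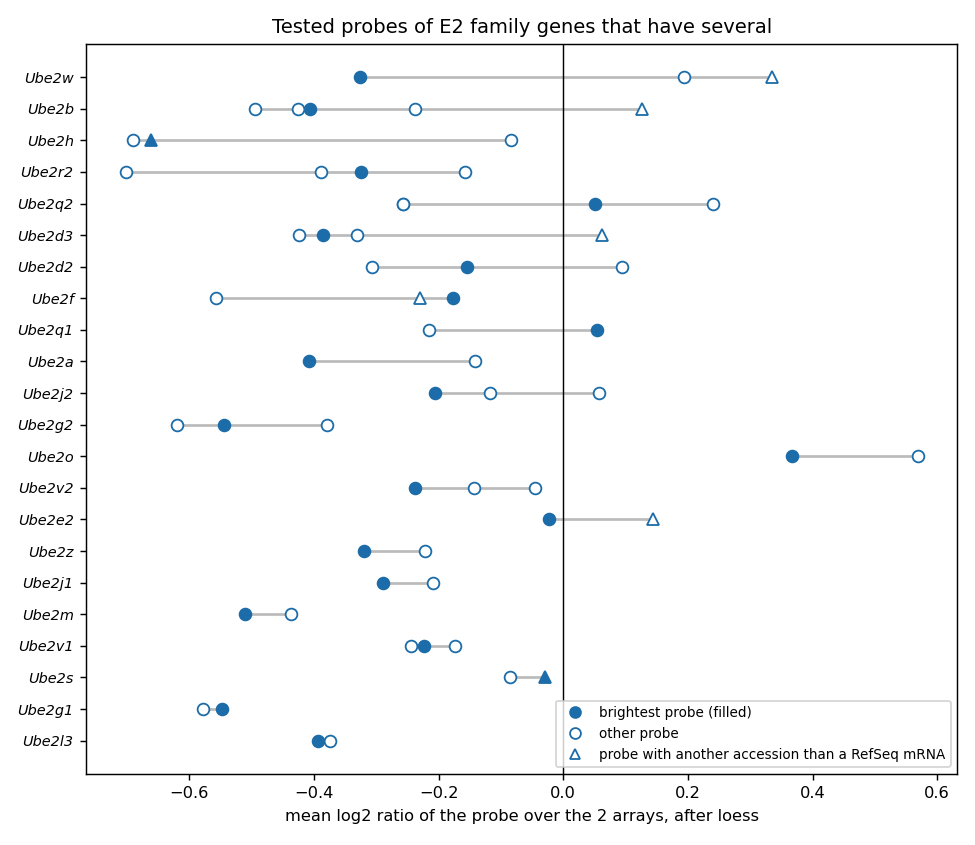
Mean log2 ratio over the 2 arrays, after loess (horizontal axis), of the tested probes of 22 E2 family genes with several, ordered by the distance between probes; filled marks are the brightest probe and triangles probes whose accession is not a RefSeq mRNA. Ube2w spreads widest of these, from -0.33 to 0.33, and Ube2l3 least, from -0.39 to -0.37, and the position of 0 depends on the centring.

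The list counts below are by the limma threshold after loess, which 28.3% of all genes tested passed as lower and 33% as higher. Nothing is read from these counts. Proteins with a related fold but another name gave 5 of 8 lower and 0 higher by limma (0 higher also at an unadjusted p under 0.05), with a median of -0.21. Aktip fell to -0.98 and -1.13 (limma, adjusted p = 5.62e-05), Ufc1, the enzyme for UFM1, fell to -0.39 and -0.35, and Tsg101, an ESCRT subunit, fell to -0.29 and -0.28. Cdc34, the relative of Ube2r2, lay at -0.24 and -0.25. Upstream of the family, 1 of 10 E1 genes was lower and 4 higher, with a median of 0.03. Uba1, the main ubiquitin E1, fell by 0.31 (adjusted p = 0.00544 in limma), while Uba6, the second ubiquitin E1, rose by 0.51 (adjusted p = 0.000414 in limma). Uba7, the E1 for ISG15, rose by 0.30. For the NEDD8 enzymes Ube2m and Ube2f, the E1 subunit Nae1 was at 0.23 and Uba3 at 0.07. The SUMO E1 subunits Uba2 and Sae1 were at 0.19 and -0.0028. These E1 directions are after loess, and by the spike-in mean all of Uba6, Uba7, Nae1 and Uba2 lie below 0, between -0.58 and -0.26, as Uba1 does at -1.07, while by all gene probes Uba1 lies at 0.35.

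Among 12 ubiquitin and ubiquitin-like genes, 5 were lower and 2 higher, with a median of -0.05. For this and each list in this paragraph, the shares of all genes tested were 28.3% lower and 33% higher. Isg15, the protein that Ube2l6 carries, fell by 0.77, and Ubb fell by 0.31. The HECT and RBR ligases that Ube2l3 serves gave 21 of 34 lower and 5 higher, with a median of -0.22. Rnf144b fell by 0.91, Trip12 fell by 0.62 and Hectd2 rose by 0.77. Cullin and anaphase-promoting complex subunits gave 10 of 29 lower and 7 higher (median -0.06), among them Cul4b at -0.57, Ddb1 at -0.47 and Fbxw7 at 0.52. Deubiquitinases, which remove ubiquitin, gave 26 of 51 lower and 11 higher (median -0.16), with Uchl3 at -0.79, Usp2 at -0.77 and Usp36 at 0.95. Usp2 differed between the arrays, at -0.49 on array 1 and -1.05 on array 2. Proteasome genes gave 11 of 17 lower and 1 higher for the 20S core (median -0.18; Psmb1 at -0.32, Psmb7 at -0.28, Psma6 at -0.24), and 13 of 20 lower and 0 higher, also unadjusted, for the 19S cap (median -0.19; Psmd13 at -0.44, Psmd4 at -0.35, Psmd2 at -0.30). The gene that was higher in the core was Psmb9, an interferon-induced subunit, at 0.23. Against like-intensity genes the median difference was -0.17 for the core and -0.19 for the cap, and 15 of 17 and 16 of 20 lay below their class median. It was -0.24 for the related-fold proteins (6 of 8 below) and -0.22 for the HECT and RBR ligases (25 of 33). The deubiquitinases lay at -0.16 (36 of 51). Ubiquitin and ubiquitin-like genes (8 of 12) and cullin and anaphase-promoting complex subunits (15 of 29) both lay at -0.07. The E1 genes lay at 0.04 (3 of 10). With the median of all gene probes as centre, the list medians turned positive for the HECT and RBR ligases (0.29), the deubiquitinases (0.46), the core (0.55), the cap (0.52) and the related-fold proteins (0.37), as the family's did. Of the genes of these lists named as lower, Aktip, Isg15, Rnf144b, Uchl3 and Usp2 kept their sign under that centring and the others turned. Of those named as higher, Usp36 (0.19) and Hectd2 (0.01) stayed above 0 by the spike-in mean, and Fbxw7 (-0.24) and Psmb9 (-0.53) did not.

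**Figure D4:**
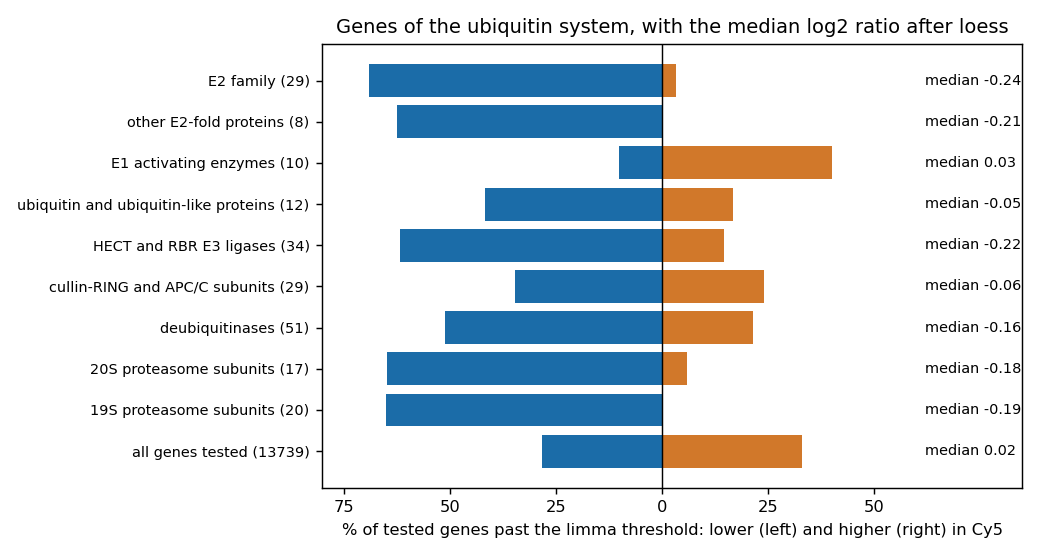
Share of tested genes past the limma threshold after loess, lower in Cy5 to the left and higher to the right (percent, horizontal axis), for the E2 family, 8 other lists of the ubiquitin system and all genes tested, with the number tested in brackets and the median log2 ratio at the right. The E2 family (20 of 29 lower, 1 higher), the 19S cap (13 of 20, 0) and the 20S core (11 of 17, 1) lean to the left. So do the related-fold proteins (5 of 8, 0), the HECT and RBR ligases (21 of 34, 5) and the deubiquitinases (26 of 51, 11). The ubiquitin and ubiquitin-like genes (5 of 12, 2) and the cullin and anaphase-promoting complex subunits (10 of 29, 7) do so less. The E1 genes (1 of 10, 4) lean to the right. All genes (28.3% lower, 33% higher) do not lean to the left, and the direction of a list turns with the centring.

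Values of cell type and state markers are given beside the family, and their part in the family's ratios was not tested. Markers are counted by the limma threshold after loess, which 28.3% of all genes tested passed as lower and 33% as higher. Keratinocyte markers were present, with 10 of 10 tested, 6 higher and 4 lower. Krt5 and Krt14 lay at 0.23 and 0.43, the least of the 6 higher ones, and the others lay above both, up to 1.57. The lower ones were Dsp at -0.91, Cdh1 at -0.60, Krt1, not well measured, at -0.37 and Krt10 at -0.25. Cdh1 differed between the arrays, at -0.20 on array 1 and -0.99 on array 2. The median of the 10 was 0.33. Their summed processed signal was 782020 and 707399 in Cy3 and 1063040 and 1035530 in Cy5 on arrays 1 and 2. Fibroblast markers gave 8 of 10 higher and 1 lower, and their summed signal was 176971 and 125227 in Cy3 against 335427 and 289487 in Cy5. Melanocyte markers gave 7 of 7 tested lower and 0 higher, with summed signals of 51761 and 46790 in Cy3 against 22026 and 16817 in Cy5. Of 8 macrophage and Langerhans cell markers on the array, 4 were tested and 3 were lower, and Ptprc, Cd74, Cd207 and Itgam had no tested probe. Only 2 of the 4 tested were well measured. The 4 tested summed to 4200 and 3657 in Cy3 and to 2884 and 2409 in Cy5. Of 6 endothelial markers 2 were tested, 1 higher and 1 lower, with sums of 1152 and 1082 in Cy3 and 1275 and 1205 in Cy5, and Pecam1 and Cdh5 had no tested probe. The lower endothelial marker was not well measured. Mitosis genes, in whose phase Ube2s acts, gave 6 of 16 lower and 3 higher (median -0.04), with Nek2 at -0.54, Cdk1 at -0.49 and Top2a at -0.27 among the lower and Ccna2 at 0.17, Mki67 at 0.16 and Cdc20 at 0.15 the higher. Interferon targets, to which Ube2l6 belongs, gave 10 of 14 tested lower and 2 higher, Uba7 at 0.30 among the higher (median -0.39). The lowest were Gbp3 at -1.55, Rsad2 at -1.03 and Ifih1 at -1.02, and Rsad2 was dim and not well measured. Ube2l6 itself was also dim and lay near 0. By the spike-in mean the median was 0.02 for the fibroblast and -0.43 for the keratinocyte markers, and with the median of all gene probes that of the melanocyte markers was -0.44, of the interferon targets -0.26 and of the mitosis genes 0.55.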

How the data were processed

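RNA of wild-type (Cy3) keratinocytes and of those labelled CHUK-LoxP mutant (Cy5) was measured on 2 Agilent mouse arrays. Per the file headers, the deposited intensities and log10 ratios were extracted with Feature Extraction 9.1.3.1, with background subtraction and dye normalization already applied to its processed signals and to the log10 ratio; the flags for well-above-background, saturated and outlier spots also come from the deposited files. The value table deposited by the authors held the same log10 ratios, within 0.005. Columns of values left unmapped numbered 0.

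From the mean and background signals, log2 ratios were computed with normexp (offset 50) and loess (control spots at weight 0) in limma 3.58.1 under R 4.3.3. Outlier spots (51 and 18) were left out and spots of a probe averaged. The mean over arrays was tested against 0 with lmFit and eBayes (1 residual degree of freedom, 5.16 prior), two-sided, with Benjamini-Hochberg adjustment over the 23519 probes tested. A fold is 2 raised to the mean log2 ratio, computed from the deposited signals. In simulated data in which few probes changed, the fit recovered 0% of 1.2-fold and 96% of 1.5-fold changes, with 14 false calls among 23519 probes. Far more probes passed the threshold in the real data, so the simulation cannot tell how reliably small changes were called here.

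Members and lists were chosen with earlier results of these data known. Array values were due for the 8 highest and 8 lowest family genes, the brightest of each role and genes with probes of opposite sign; they are given for 28 of the 29 tested family genes. For the rest, 1 family gene and 1 list gene are counted but not reported by name here. The lists contributed at most 3 called genes each, by size of change; any further ones were chosen after their values were seen. Isg15, Uba7, Usp18, Herc6 and Psmd14 stand in more than 1 list. Alternatives were the software's log ratio, median centring, a spike-in shift, the dim-probe filters, the probe rule, 20 intensity classes and leaving out an array. Paralog pairs and promoter motifs are descriptions only. Gene symbols are those of the array, and Park2, Emr1 and Skp1a are older names. Promoter windows are RefSeq's.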

Additional observations from a re-analysis of the deposited data

How the results depend on the processing

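Each array sets mutant against wild type, and this pairing is held in the ratios tested against 0. No further pairing was possible because the 2 arrays form 1 group. The family's median difference from like-intensity genes was -0.27 with the software's log ratio, -0.24 without loess, -0.23 with the mean of probes and -0.26 with 20 intensity classes. It ran from -0.27 to -0.22 when an array was left out and was -0.17 with the dimmest probe of each gene. The median centrings differ from each other only by a shift of every gene, as the spike-in setting does from loess, so these shifts cannot move it. It rests on well-measured genes only, so the dim-probe filters could hardly change it. The family median was -0.27 with the software's log ratio, -0.10 with median centring over the tested probes, -0.15 with that centring shifted to the loess median, 0.38 with the median of all gene probes, -1.0 by the spike-in mean, -0.21 for the mean of probes, -0.14 for the dimmest probe and -0.29 without genes of opposite probes, and ran from -0.24 to -0.21 without 1 array. Genes past the threshold as higher numbered 4 with median centring (38.5% of all genes), 2 with the shifted centring (33.6%), 21 with the median of all gene probes (75.1%), 0 by the spike-in mean (1.98%) and 3 with the dimmest probe (30.7%). Those past it as lower numbered 13 with the software's log ratio (22.6% of all genes), 10 with median centring (28.2%) and 0 with the median of all gene probes (7.14%). Genes past 1.5-fold as higher numbered 4 with the median of all gene probes (39.9% of all genes) and 1 with the dimmest probe (4.96%), and as lower 28 by the spike-in mean (61.1%) and 0 to 2 without 1 array: 2 without array 1 (8.4%). With no loess, the ratio with the median of all gene probes was 0.26 for Ube2a, 0.34 for Ube2b, 0.040 for Ube2d1, 0.48 for Ube2d2, 0.32 for Ube2d3, 0.59 for Ube2e1, 0.63 for Ube2e2, 0.42 for Ube2e3, 0.45 for Ube2f, 0.10 for Ube2g1, 0.18 for Ube2g2, 0.41 for Ube2j1, 0.44 for Ube2j2, 0.18 for Ube2l3 and Ube2m, 0.095 for Ube2n, 0.38 for Ube2r2, 0.74 for Ube2s, 0.54 for Ube2t, 0.52 for Ube2v1, 0.35 for Ube2v2, 0.29 for Ube2w and 0.32 for Ube2z, each the opposite sign to loess. Median centring over tested probes gave 0.0076 for Ube2d2, -0.36 for Ube2l6, 0.26 for Ube2s and 0.040 for Ube2v1, and the shifted centring gave -0.42 for Ube2l6 and 0.20 for Ube2s. By the spike-in mean Ube2l6 lay at -0.71, Ube2o at -0.40, Ube2q1 at -0.71 and Ube2q2 at -0.71. The mean of probes gave 0.068 for Ube2w. The dimmest probe gave 0.13 for Ube2b, 0.095 for Ube2d2, 0.062 for Ube2d3, 0.058 for Ube2j2, -0.22 for Ube2q1, -0.26 for Ube2q2 and 0.33 for Ube2w. The cause was not tested. The centring on all gene probes, the dimmest probe and the median without opposite probes were chosen after seeing the data. Ube2l6, Ube2d1 and Ube2u are limited by signal over background.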

Other observations

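Genes that RefSeq now names Ube2 but the array lists otherwise stood outside the family as chosen. Ube2k, an enzyme that builds chains for the proteasome, is listed as Hip2, and its 4 tested probes gave mean log2 ratios of -0.19, 0.06, -0.22 and -0.25 after loess. The 3 Ube2k probes below 0 passed the limma threshold (adjusted p = 0.0287, 0.0106 and 0.00633), and all 3 lay below 0 on both arrays. Its remaining probe lay above 0 on both arrays, at 0.08 and 0.05. Ube2cbp, listed as 2610018I03Rik, gave 0.06 and 0.02, and the 4 probes of Ube2d-ps, listed as 2210015D19Rik, ran from -0.12 to 0.06. Ube2d2b, Ube2dnl2 and Ube2ql1 had no tested probe.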
